A study of Mus musculus with 16 samples.

Results

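The SOX genes encode transcription factors that bind short AT-rich sequences through a high mobility group (HMG) box related to that of the sex-determining factor SRY, and they are sorted into groups by the likeness of this box. Here the loci of 10 SOX genes were described: Sox3 of group B1, Sox4 and Sox11 of group C, Sox5, Sox6 and Sox13 of group D, Sox8, Sox9 and Sox10 of group E, and Sox15 of group G. None of them belongs to the pluripotency core, the neural set or the endoderm set of genes. An open chromatin region was counted at a locus if its centre fell in the gene body or at most 100 kb from an annotated transcription start site (TSS) of the gene, in GENCODE M21 on the mm10 assembly. Of the 81132 regions of the merged list, 180 (0.222%) fulfilled this condition, and no region fell in the windows of more than 1 gene. Outside the gene bodies, the farthest region that was still counted lay 98.1 kb from a TSS, at Sox8, and the nearest that was left out lay 101 kb from a TSS, at Sox10.

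The regions come from ATAC-seq, in which the Tn5 transposase cuts accessible DNA and tags it for sequencing. The cells were SBROS mouse embryonic stem (ES) cells, a knock-in line of the CGR8 background with a C-terminal SNAP-tag on both alleles of Sox2 and a C-terminal HALO-tag on 1 allele of Oct4 (Pou5f1), derived from a line with SOX1-P2A-eGFP and BRA-P2A-mCherry reporters. They were kept in serum with LIF, 3 µM CHIR99021 and 0.8 µM PD184352, labelled with 100 nM HaloTag TMR, 12 nM SNAP-SiR647 and 1.62 µM Hoechst, and sorted in G1 into SHOH (SOX2 high, OCT4 high), SHOL (SOX2 high, OCT4 low), SLOH (SOX2 low, OCT4 high) and SLOL (both low), with 3 replicates of each. All 4 populations are sorted fractions of 1 clone, and the HALO-tag reads out 1 of the 2 Oct4 alleles. The list pools the 12 libraries, leaves out places with a peak in a ChIP-seq input, and carries positions alone. It does not say how many libraries support a region, how strong the region is or how deep each library was, and no value below compares the populations. Intervals are 95% Wilson intervals and cover counting error only.

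Promoters of marker genes were looked up to compare the list with the labelled cell type. A promoter was taken from 1000 bp before to 100 bp after a TSS, and a region was assigned to it by its centre. Among 12 ES cell markers, 9 had a region in their promoter, namely Pou5f1, Sox2, Zfp42, Esrrb, Klf4, Dppa5a, Tdgf1, Fgf4 and Tbx3. Of the other 3, Tfcp2l1 and Utf1 had a region over a TSS with its centre 174 and 251 bp away, and at Nanog the nearest region centre was 4329 bp from a TSS. None of the 12 markers of hepatocytes, T cells, skeletal muscle and pancreatic beta cells had a promoter region or a region over a TSS, although region centres lay 366 bp from a TSS of Myog and 602 bp from that of Myod1. Of the 4 fibroblast markers 3 had one, Col1a1, Col1a2 and Thy1, and Postn had none. Whether cells other than ES cells contributed to these regions was not tested.

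SOX2, the best known SOX factor of ES cells, pairs with OCT4 (the product of Pou5f1) on DNA, where a SOX site and an octamer lie side by side. The letters CCATTGT or CCTTTGT were therefore searched as the SOX motif and ATGCAAAT as the octamer, on both strands of the 300 bp around each region centre. Not every motif combination at these loci is printed. Sequences with these SOX letters and an octamer in the same 300 bp, or with a pair of octamers, are shown first. They come first because the octamers at these loci were concentrated at Sox9 and Sox4. The first 2 are neighbouring intergenic regions 57.7 kb (chr11:112839743-112840036) and 58.3 kb (chr11:112840197-112840935) downstream of Sox9. In the region at 57.7 kb the motifs did not lie side by side: the SOX motif was at -34 bp and the octamer at 42 bp from the centre. The last is the intergenic region 35.3 kb upstream of Sox4 (chr13:28988721-28989336). The regions with a pair of octamers were singled out after their values were seen. The sequences are the plus strand of mm10, and capitals mark SOX motifs and octamers.
Sox9 SOX motif and octamer, chr11:112839740-112840039: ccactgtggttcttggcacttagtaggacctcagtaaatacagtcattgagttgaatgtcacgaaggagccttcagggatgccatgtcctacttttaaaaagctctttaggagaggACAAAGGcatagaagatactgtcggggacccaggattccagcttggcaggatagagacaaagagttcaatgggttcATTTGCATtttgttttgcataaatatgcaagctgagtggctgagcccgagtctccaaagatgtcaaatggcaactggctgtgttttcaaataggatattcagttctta
Sox9 octamer pair, chr11:112840416-112840715: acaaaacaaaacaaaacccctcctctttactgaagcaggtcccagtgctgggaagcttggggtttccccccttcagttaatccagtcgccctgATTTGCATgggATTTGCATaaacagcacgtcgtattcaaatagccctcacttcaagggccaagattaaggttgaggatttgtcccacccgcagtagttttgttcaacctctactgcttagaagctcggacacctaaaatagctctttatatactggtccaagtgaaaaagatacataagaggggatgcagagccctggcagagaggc
Sox4 octamer pair, chr13:28988879-28989178: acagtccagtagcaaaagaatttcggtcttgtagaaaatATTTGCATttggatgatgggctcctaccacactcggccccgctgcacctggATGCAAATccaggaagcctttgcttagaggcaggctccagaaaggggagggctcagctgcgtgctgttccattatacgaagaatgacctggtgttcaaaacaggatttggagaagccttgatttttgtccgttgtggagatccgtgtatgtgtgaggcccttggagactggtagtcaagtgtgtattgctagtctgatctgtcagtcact

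The number of regions differed widely among the 10 loci. Sox5 had the most, with 63 regions, which was 35% of the 180, and Sox3 had the fewest, with 3. Between them were Sox10 with 20, Sox6 and Sox15 with 19 each, Sox9 with 16, Sox4 and Sox13 with 13 each, and Sox8 and Sox11 with 7 each. The median was 14.5 regions per locus, against 11 over all 21938 protein-coding genes counted in the same way, whose quartiles were 6 and 17. Since the window grows with the length of the gene, the counts were also divided by the length of the window. The 10 windows together held 5.35 regions per 100 kb, and the median of the loci was 5.71, beside a median of 5.00 over all protein-coding genes and 2.98 over the chromosomes as a whole. On this scale the order changed: Sox10 (9.96), Sox15 (9.50) and Sox9 (8.00) came first, Sox4 (6.50), Sox5 (5.98) and Sox13 (5.44) lay just above the median of all genes, and Sox11 (3.50), Sox8 (3.49), Sox6 (2.84) and Sox3 (1.50) lay below it. No error between replicates is attached to these counts, so small differences between loci carry no weight.

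**Figure D1:**
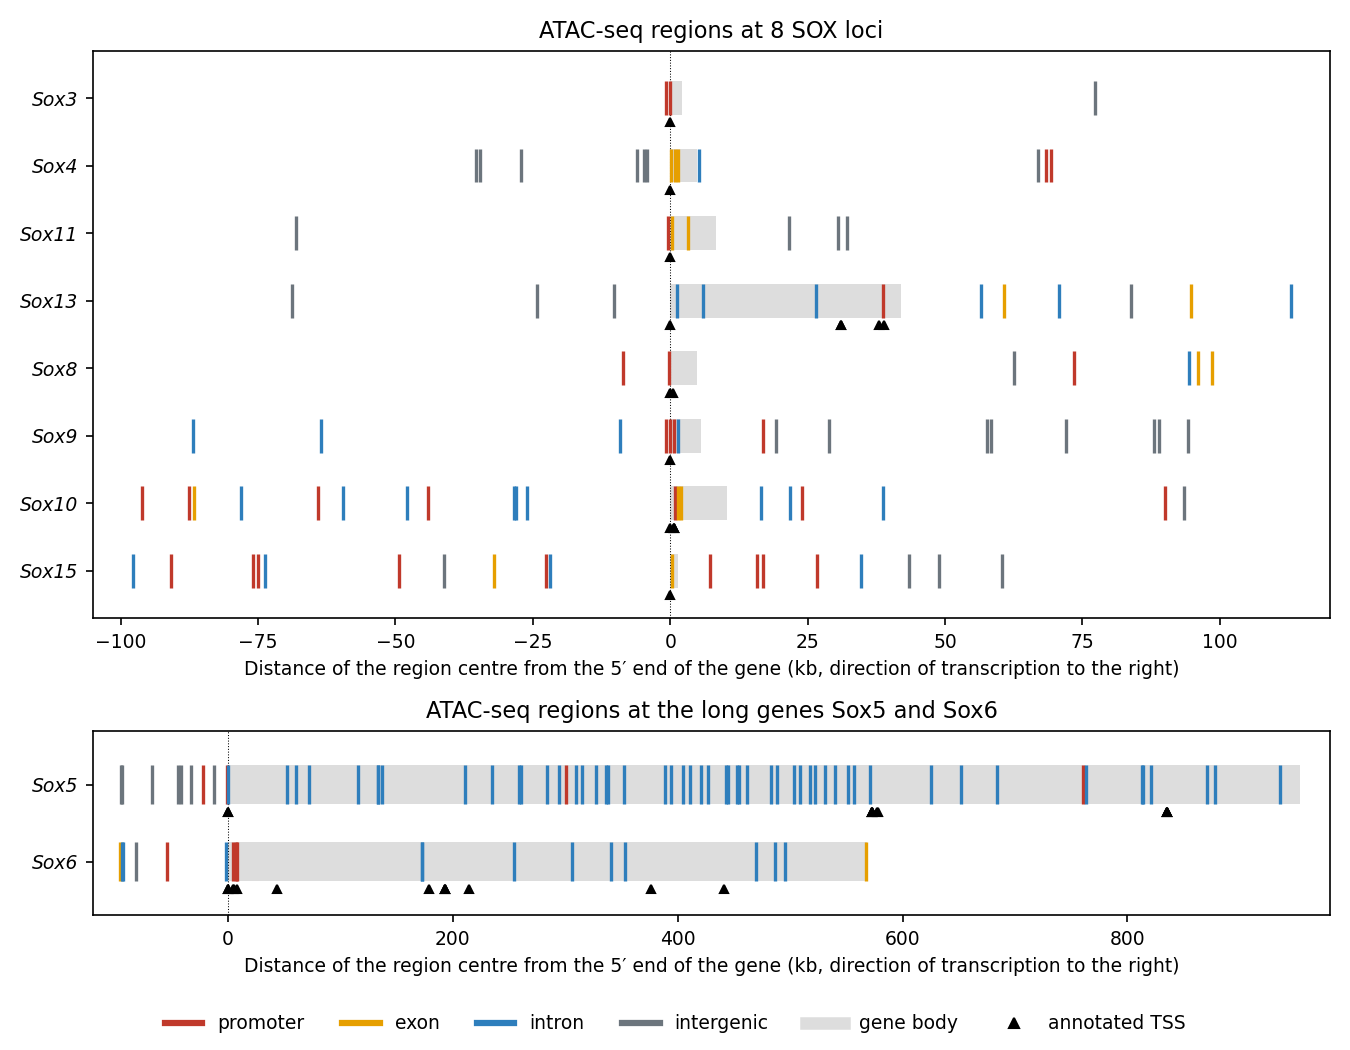
Positions of the 180 regions along the 10 loci. Each vertical line is a region centre, plotted by its distance in kb from the 5′ end of the gene and coloured by its annotation class, grey bars are gene bodies and triangles are annotated TSSs. Sox3 has 3 regions in its window, whereas the Sox5 gene body alone contains 54.

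**Figure D2:**
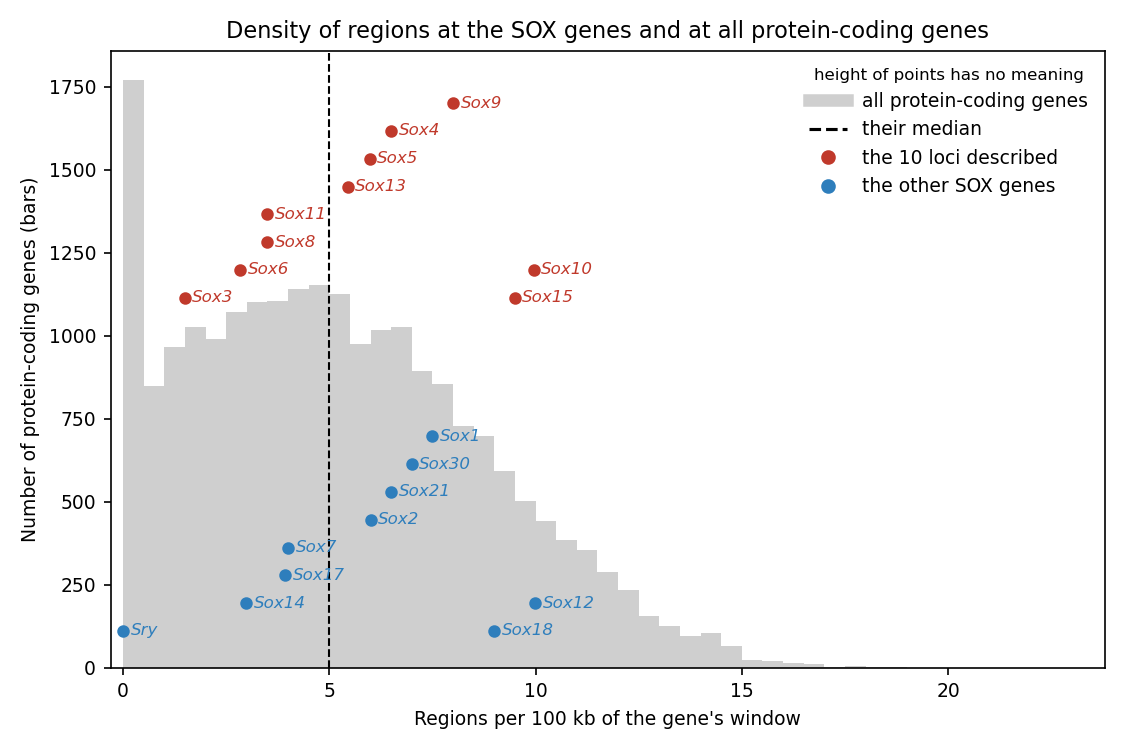
Regions per 100 kb of the window for the 10 loci (red) and the other 10 SOX genes (blue) over the distribution of all 21938 protein-coding genes (grey bars; the dashed line is their median of 5.00). The height of a point has no meaning. Sox3 (1.50) lies at the low end and Sox10 (9.96) and Sox15 (9.50) lie at the high end of the 10 loci.

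The surroundings of the genes differed as well. In 5 windows, those of Sox3, Sox4, Sox5, Sox9 and Sox11, no other protein-coding gene started, whereas 14 others started in the Sox15 window, 7 in the Sox10 window, 5 in the Sox13 window and 2 each in those of Sox6 and Sox8. The distance from the 5′ end of the gene to the next protein-coding gene start was 873 kb at Sox11, 837 kb at Sox9 and 696 kb at Sox4, and the median over all protein-coding genes was 22.2 kb. Over the 2248 protein-coding genes with no other coding start in their window, the median was 2.27 regions per 100 kb. Of the 5 SOX genes of this kind, Sox9, Sox4, Sox5 and Sox11 were above that median and Sox3 was below it.

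By the class at the centre, 37 of the 180 regions (20.6%, interval 15.3 to 27.0) were in a promoter, 16 (8.89%) in an exon, 89 (49.4%, interval 42.2 to 56.7) in an intron and 38 (21.1%, interval 15.8 to 27.6) were intergenic. Over the whole list the shares were 21% for promoters, 8.76% for exons, 35.0% for introns and 35.2% for intergenic regions. The intronic share rests on Sox5, which held 52 of the 89 intronic regions. Of the 37 promoter regions, 11 were in a promoter of the SOX gene itself and 26 in a promoter of another gene. At 8 of the 10 loci (80%, interval 49.0 to 94.3) the gene had a region in its own promoter, and over all protein-coding genes 12649 of 21938 (57.7%) did. Sox4 and Sox15 were the loci without an own-promoter region. The closest TSS of any annotated gene belonged to the SOX gene for 66 of the 180 regions (36.7%, interval 30.0 to 43.9). When the closest TSS was taken among protein-coding genes alone the number was 130 (72.2%), since noncoding genes start close to several of these loci.

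**Figure D3:**
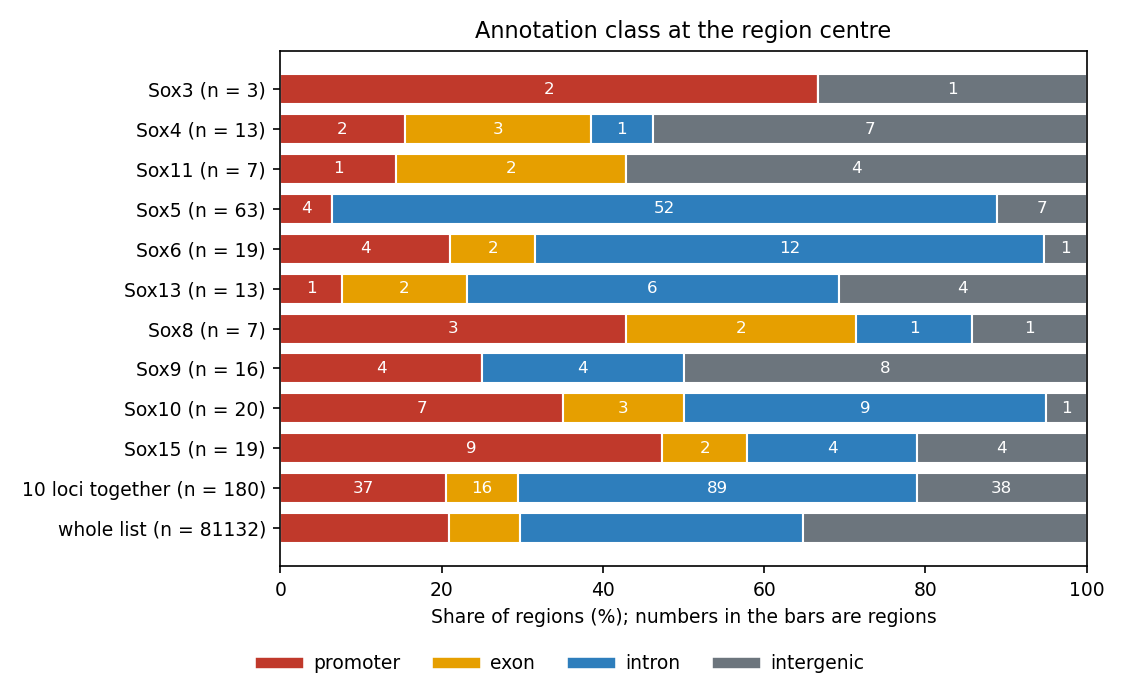
Annotation class at the region centre for each locus, for the 10 loci together and for the whole list, as percent of regions (numbers in the bars are regions). At Sox5, 52 of 63 regions are intronic, and at Sox15, 9 of 19 are in promoters.

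Sox3, the group B1 gene on the X chromosome, is a close relative of Sox1 and Sox2 that is active in neural progenitors. The gene (60891366 to 60893430 on chromosome X, minus strand) is 2.07 kb long and had 3 regions in its window. The region over its TSS (chrX:60893186-60893636) was 451 bp wide with its centre 19 bp from the TSS, and a neighbour of 343 bp (chrX:60893946-60894288) was centred 0.7 kb upstream, also in the Sox3 promoter. The last, 250 bp wide and intergenic, lay 77.3 kb downstream. Of all protein-coding genes, 11.5% had fewer regions than Sox3. Its density of 1.50 per 100 kb stood beside 1.07 on the X chromosome as a whole. Both promoter regions were rich in GC (68.7% and 65.3% of the 300 bp) and held a GC box (GGGCGG, a site of the SP and KLF factors). The part of the TSS window upstream of the gene follows on the plus strand, with the GC box in capitals on its reverse strand. Sox3 is on the minus strand, so the TSS is next to the left end.
Sox3 promoter, chrX:60893431-60893560: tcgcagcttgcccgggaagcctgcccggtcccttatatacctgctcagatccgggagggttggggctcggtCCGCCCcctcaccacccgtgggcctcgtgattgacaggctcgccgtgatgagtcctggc

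Group C is made up of Sox4, Sox11 and Sox12, intronless genes that act in neuronal and mesenchymal precursors. Both genes described here lie far from other coding genes, on chromosome 13 (Sox4, 28948919 to 28953713, minus strand) and on chromosome 12 (Sox11, 27334264 to 27342574, minus strand). Sox4 had 13 regions. No region was centred in its promoter as defined, but the widest region of the locus (776 bp, chr13:28953155-28953930) covered its TSS, with its centre 170 bp downstream in the 5′ untranslated part, and 2 further regions of 269 and 246 bp followed in the coding sequence. A group of 3 regions lay 4.3, 4.8 and 6.0 kb upstream, and another 3 lay 27.2, 34.7 and 35.3 kb upstream, of which the first and the last held octamers. The octamer share at Sox4 was therefore 2 of 13 (15.4%, interval 4.33 to 42.2), beside 2.15% of the whole list. A region of 474 bp lay behind the 3′ end of the gene in an intron of Gm26735. The 3 most distant regions, 66.8, 68.4 and 69.3 kb downstream, were at the start of the noncoding gene 2610307P16Rik, and 2 of these were in its promoter. Joining regions at most 500 bp apart left 9 of the 13.

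Sox11 had 7 regions, and for all 7 the closest TSS was that of Sox11 itself. The widest (741 bp, chr12:27342570-27343310) was in its promoter, centred 366 bp from the TSS, and the next (385 bp) was in the coding sequence 0.4 kb downstream. A region of 200 bp lay in the untranslated part 3.2 kb downstream, and the other 4 were intergenic, 21.7, 30.5 and 32.2 kb downstream and 68.1 kb upstream. The regions in or next to the gene had GC contents from 60.7% to 65%, and the 4 intergenic regions from 49% to 53.7%. No SOX motif or octamer was found at Sox11. The promoter window held a pair of GC boxes, in capitals.
Sox11 promoter, chr12:27342790-27343089: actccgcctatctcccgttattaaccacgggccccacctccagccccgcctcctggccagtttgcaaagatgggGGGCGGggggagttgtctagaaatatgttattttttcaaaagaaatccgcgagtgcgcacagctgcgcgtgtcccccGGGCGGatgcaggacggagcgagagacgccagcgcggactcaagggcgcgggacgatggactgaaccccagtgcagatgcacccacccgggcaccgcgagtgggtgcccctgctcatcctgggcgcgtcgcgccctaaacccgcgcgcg

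The group D factors SOX5, SOX6 and SOX13 have no activation domain of their own, and SOX5 and SOX6 act together with SOX9 in cartilage. Sox5 (chromosome 6, 143828425 to 144781977, minus strand) is 954 kb long with 12 annotated TSSs. Of its 63 regions, 54 were in the gene body, and 99.97% of protein-coding genes had fewer regions in their window. Among the 230 protein-coding genes longer than 500 kb, 6 had more regions in the body than Sox5 and 6 had more per 100 kb of body, where Sox5 had 5.66. Relative to its window the count was less extreme: 58.9% of protein-coding genes had a lower density than the 5.98 per 100 kb of Sox5, and chromosome 6, which is rich in regions, had 4.41 over its whole length. The regions were not spread evenly along the gene. The first 572 kb, up to the first internal TSS over 100 kb from the 5′ end, held 43 regions (7.51 per 100 kb), and the remaining 381 kb held 11 (2.89 per 100 kb). The widest were intronic, 1096 bp (chr6:143960067-143961162) and 1025 bp (chr6:144361036-144362060), and 16 of the 63 were narrower than 200 bp.

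At the 5′ end of Sox5 a region of 601 bp (chr6:144781389-144781989) covered the TSS, and a region of 678 bp (chr6:144782390-144783067) was centred in the promoter 0.8 kb upstream. The internal TSSs, all more than 572 kb into the gene apart from 1 at 58 bp, had no region in their promoters, and that 1 shared the promoter region of the 5′ end. Another 2 promoter regions inside the gene belonged to the antisense genes Sox5os2 (chr6:144481111-144481509) and Sox5os1 (chr6:144021524-144021712), and both had a SOX motif in their 300 bp, that of Sox5os1 in a repeat and outside the region proper. Of the 63 regions, 13 (20.6%, interval 12.5 to 32.2) held a SOX motif, and the 12.7% of the whole list lies in that interval. The motif of the region 625.6 kb into the gene also lay outside the region proper. None of the 63 held an octamer, beside 2.15% of the list. A count of 0 in 63 allows a share of up to 5.75% at the upper end of the interval. At least 2 SOX motifs occurred in 3 of the 180 regions (1.67%), 2 at Sox5 and 1 at Sox15, and in 1.14% of the list. An intron of Sox5 with such a pair is given with the Sox5 promoter, with SOX motifs in capitals. The SOX motif of that promoter lies partly in a repeat.
Sox5 intron, 404.5 kb into the gene, chr6:144377347-144377646: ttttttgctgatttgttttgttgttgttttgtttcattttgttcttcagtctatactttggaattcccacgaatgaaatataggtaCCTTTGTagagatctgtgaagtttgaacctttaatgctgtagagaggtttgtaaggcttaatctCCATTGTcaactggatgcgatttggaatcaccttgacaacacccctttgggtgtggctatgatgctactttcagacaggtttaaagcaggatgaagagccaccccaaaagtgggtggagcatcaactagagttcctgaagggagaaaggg
Sox5 promoter, chr6:144782579-144782878: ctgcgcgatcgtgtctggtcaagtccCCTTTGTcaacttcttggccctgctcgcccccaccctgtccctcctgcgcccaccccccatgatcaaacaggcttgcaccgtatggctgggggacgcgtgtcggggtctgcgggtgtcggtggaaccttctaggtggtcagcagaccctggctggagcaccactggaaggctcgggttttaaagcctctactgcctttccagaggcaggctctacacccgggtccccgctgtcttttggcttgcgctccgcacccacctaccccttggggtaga

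Sox6 (chromosome 7, 115470872 to 116038796, minus strand), which also acts in red blood cell precursors, is 568 kb long with 13 annotated TSSs, but had 19 regions, 13 of them in the body. Its body held 2.29 regions per 100 kb, and 67 of the 230 long genes had more. The largest gap between neighbouring centres was 165 kb, between an intronic region 172 kb and a promoter region 7.5 kb into the gene. Near the 5′ end were 4 regions. A region of 1056 bp lay 1.4 kb upstream in an intron of the divergent gene 1110004F10Rik, a region of 1039 bp (chr7:116033735-116034773) 4.5 kb into the gene covered an internal TSS and lay in the promoter of another, and regions of 560 and 186 bp were in promoters of Sox6os and Sox6 at 6.7 and 7.5 kb. Of the 13 TSSs, 2 had a region centred in their promoter. The share of regions with a SOX motif was the highest of the 10 loci, 7 of 19 (36.8%, interval 19.1 to 59.0). Over the whole list it was 12.7%, and the interval overlaps those of Sox13 (30.8%, 12.7 to 57.6) and Sox8 (2 of 7, 28.6%, 8.22 to 64.1). Of the 7 regions, 4 were introns of Sox6, 1 was the region at 7.5 kb and 2 were introns of Plekha7, a coding gene upstream. The promoter window with the SOX motif, on the reverse strand, and with 3 GC boxes is shown with these in capitals. The SOX motif in it lies in a repeat.
Sox6 promoter, chr7:116031123-116031422: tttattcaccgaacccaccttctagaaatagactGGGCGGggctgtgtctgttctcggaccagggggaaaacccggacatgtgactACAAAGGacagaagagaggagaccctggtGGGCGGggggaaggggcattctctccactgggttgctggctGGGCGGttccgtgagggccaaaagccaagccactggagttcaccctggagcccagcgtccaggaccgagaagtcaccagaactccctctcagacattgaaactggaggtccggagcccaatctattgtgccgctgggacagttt

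Sox13 (chromosome 1, 133382303 to 133424377, minus strand), known from the gamma delta lineage of T cells, had 13 regions, 4 in the gene body. Its main TSS at the 5′ end was not under a region, and the nearest was intronic, 1.3 kb downstream. The own-promoter region of 344 bp (chr1:133385566-133385909) was 38.6 kb into the gene, in the promoter of an internal TSS. The widest region of all 10 loci, 1290 bp and intergenic (chr1:133492563-133493852), lay 68.8 kb upstream of Sox13. Of the 5 other coding genes that start in the window none had a region centred in its promoter, although 2 regions lay in introns or exons of Etnk2. The exonic region, 734 bp wide, was centred 106 bp from a TSS of Etnk2 and covered it. Further regions of the locus lay in introns of Golt1a and Ren1 and in an exon of Kiss1. The SOX motif occurred in 4 of its 13 regions (30.8%, interval 12.7 to 57.6), beside 12.7% of the whole list. In the intronic region at 1.3 kb the motif lay outside the region proper. The promoter window outside annotated exons held none of the searched letters marked here, so it has no capitals.
Sox13 promoter, chr1:133385610-133385887: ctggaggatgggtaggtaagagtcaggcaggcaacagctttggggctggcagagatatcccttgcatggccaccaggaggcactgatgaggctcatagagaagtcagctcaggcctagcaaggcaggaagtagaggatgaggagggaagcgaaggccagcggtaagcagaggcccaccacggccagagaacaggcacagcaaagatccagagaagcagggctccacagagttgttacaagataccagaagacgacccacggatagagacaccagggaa

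Sox8, Sox9 and Sox10 form group E, whose members act in neural crest, glia, testis and cartilage. Sox9 (chromosome 11, 112782224 to 112787760, plus strand), required for cartilage and testis formation, had 16 regions and a density of 8.00 per 100 kb, higher than at 77.2% of protein-coding genes although no other coding gene starts in its window. A region of 248 bp (chr11:112782084-112782331) covered its TSS, with the centre 16 bp away, and a region of 447 bp (chr11:112781147-112781593) was centred 0.9 kb upstream in the promoter. Another, 0.6 kb downstream, was counted in the promoter of the divergent noncoding gene BC006965, in whose introns 3 regions lay 9.1, 63.6 and 86.9 kb upstream of Sox9. The intron of Sox9 held 1 region, 1.5 kb after the TSS. Downstream of the gene were 9 regions between 16.8 and 94.2 kb, 8 of them intergenic and 1 in the promoter of the lincRNA Gm11681. An octamer was present in 4 of the 16 regions (25%, interval 10.2 to 49.5), all 4 between 19.3 and 58.3 kb downstream of the TSS, beside 2.15% of the whole list. Those at 57.7 and 58.3 kb are less than 500 bp apart. Joining regions at most 500 bp apart left 12 of the 16. In the region at 19.3 kb, which is 142 bp wide, the octamer lay outside the region proper, in the part of the 300 bp beyond its end. The SOX motif occurred in 3 regions (18.8%, interval 6.59 to 43.0), at 57.7, 89 and 94.2 kb, beside 12.7% of the whole list. The region at 57.7 kb held an octamer as well. It was the only 1 of the 180 regions with both (0.556%), beside 289 of all 81132 (0.356%). These counts rest on the full letters CCATTGT or CCTTTGT, and octamers beside shorter or other SOX letters are not among them. At 57.7 kb the octamer lay in a repeat and the SOX motif partly in a repeat, whereas the octamer pair at 58.3 kb did not. The promoter upstream of the TSS is shown up to the base before the gene, and it held no SOX motif, octamer or GC box. Its letters contain CCAAT boxes, which were not put in capitals.
Sox9 promoter, chr11:112782058-112782223: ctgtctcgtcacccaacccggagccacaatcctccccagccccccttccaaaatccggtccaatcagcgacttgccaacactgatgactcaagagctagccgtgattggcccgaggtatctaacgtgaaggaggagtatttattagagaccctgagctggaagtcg

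Sox8 (chromosome 17, 25565892 to 25570686, minus strand) had 7 regions, and none was centred in its body. Its own-promoter region of 519 bp (chr17:25570585-25571103) covered the TSS with the centre 158 bp away and was shared with the antisense gene 2810468N07Rik. Of the other 6, a region lay in the promoter of Lmf1, which encodes a lipase maturation factor, 8.6 kb upstream, and a region lay in that of the somatostatin receptor gene Sstr5, 73.6 kb downstream. Of the remaining 4, a region was intergenic and 3 were in Tekt4, 94.4 to 98.6 kb downstream, close to the limit of the window. With a window of 50 kb instead of 100 kb, 2 of the 7 regions were left. No region had Sox8 as the gene of its closest TSS. The promoter window of Sox8 lay in annotated exons throughout and is not printed.

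Sox10 (chromosome 15, 79154908 to 79165240, minus strand), the regulator of melanocytes and peripheral glia, had 20 regions and the highest density, 9.96 per 100 kb, against 3.03 on chromosome 15 as a whole. The closest TSS was that of Sox10 for 3 of the 20 and that of a neighbouring gene for the others. Which gene a region serves was not tested. In the gene itself were 3 regions of 234, 254 and 401 bp, between 0.8 and 2.0 kb from the 5′ end, and the first of these was in the promoter of internal TSSs, centred 73 bp from the nearest. The TSS at the 5′ end had no region in its promoter. Promoter regions of 7 other coding genes lay in the window, and the 5 of these that start closest to Sox10 were Polr2f, which encodes a subunit of the RNA polymerases, 1700088E04Rik, Pick1, Gm49486 and the translation initiation factor gene Eif3l. A further 6 regions, 26.0 to 59.6 kb upstream, were in the noncoding gene Gm10863. The SOX motif occurred in 2 regions (10%, interval 2.79 to 30.1), both in introns of Gm10863, beside 12.7% of the whole list. In the region 26.0 kb upstream the motif lay outside the region proper. The stretch of the promoter window outside exons is short and held no motif.
Sox10 promoter, chr15:79164507-79164550: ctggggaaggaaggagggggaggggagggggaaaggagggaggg

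Sox15 (chromosome 11, 69655314 to 69656727, plus strand), the only mammalian member of group G, is transcribed in ES cells, and its protein can bind DNA together with OCT4. At 1.41 kb it is the shortest of the 10 genes, and its window holds the most coding genes. Of the 19 regions, 9 were in promoters, all of other genes. The 5 nearest of the 7 coding genes with a promoter region were Mpdu1, Fxr2, Eif4a1, Senp3 and Atp1b2. The gene itself had 1 region, 153 bp wide (chr11:69655510-69655662), in its coding sequence and centred 272 bp after the TSS, and the list placed no region over the TSS. The SOX motif occurred in 4 of its 19 regions (21.1%, interval 8.51 to 43.3), beside 12.7% of the whole list. An octamer was present in 1, the promoter region of Atp1b2 (chr11:69605728-69606191).

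Over the 10 loci together, 36 of the 180 regions (20%, interval 14.8 to 26.4) held a SOX motif, and over the whole list 12.7% (interval 12.4 to 12.9) did. Outside promoters it was 28 of 143 (19.6%, interval 13.9 to 26.8), an interval that holds the 14.1% of the list, and in promoters 8 of 37 (21.6%, interval 11.4 to 37.2) against 7.06%. Of these 8, 3 were in the Sox5 window. Only those of Sox5 and Sox6 were promoters of the SOX gene itself. The motifs at Sox5os1 and Sox6 lay in repeats, and those at Sox5os1 and 2610307P16Rik lay outside the region proper. Without Sox5, 23 of 117 regions (19.7%) held the motif. The size depended on the window and the letters: in the 200 bp around the centre the share was 12.2% at the loci (interval 8.21 to 17.8, which holds the 8.99% of the list), and with the shorter letters CATTGT or CTTTGT it was 40% (interval 33.1 to 47.3) against 32.8%. Of the 39 SOX motifs found, 34 were inside the region itself and 32 were outside annotated repeats. An octamer was present in 7 of the 180 regions (3.89%, interval 1.90 to 7.81), beside 2.15% of the whole list, and this value rested on Sox9: without that locus it was 3 of 164 (1.83%). Of those 3, 2 were at Sox4 and 1 at Sox15. A pair of octamers occurred in 2 of the 180 regions and in 102 of all 81132 (0.126%).

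The GC, CCAAT and TATA boxes had shares whose intervals held those of the list, and the ESRRB and CTCF sites were few. A GC box was present in 25.6% of the 180 regions (interval 19.7 to 32.4) and 25.2% of the list, a CCAAT box (CCAAT, bound by NF-Y) in 27.2% (interval 21.2 to 34.1) and 31.4%, and a TATA box (TATAAA) in 8.33% (interval 5.11 to 13.3) and 10.4%. The ESRRB site TCAAGGTCA, named after a nuclear receptor of naive ES cells, was found in 1 region, upstream of Sox5 (0.556%, interval 0.0981 to 3.08), and in 1.84% of the list. A site of CTCF, the factor that bounds chromatin loops, was found in 3 regions (1.67%, interval 0.568 to 4.78), at Sox5, Sox6 and Sox10, and in 5.50% of the list. A match of letters describes the sequence and does not show that a factor binds there.

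**Figure D4:**
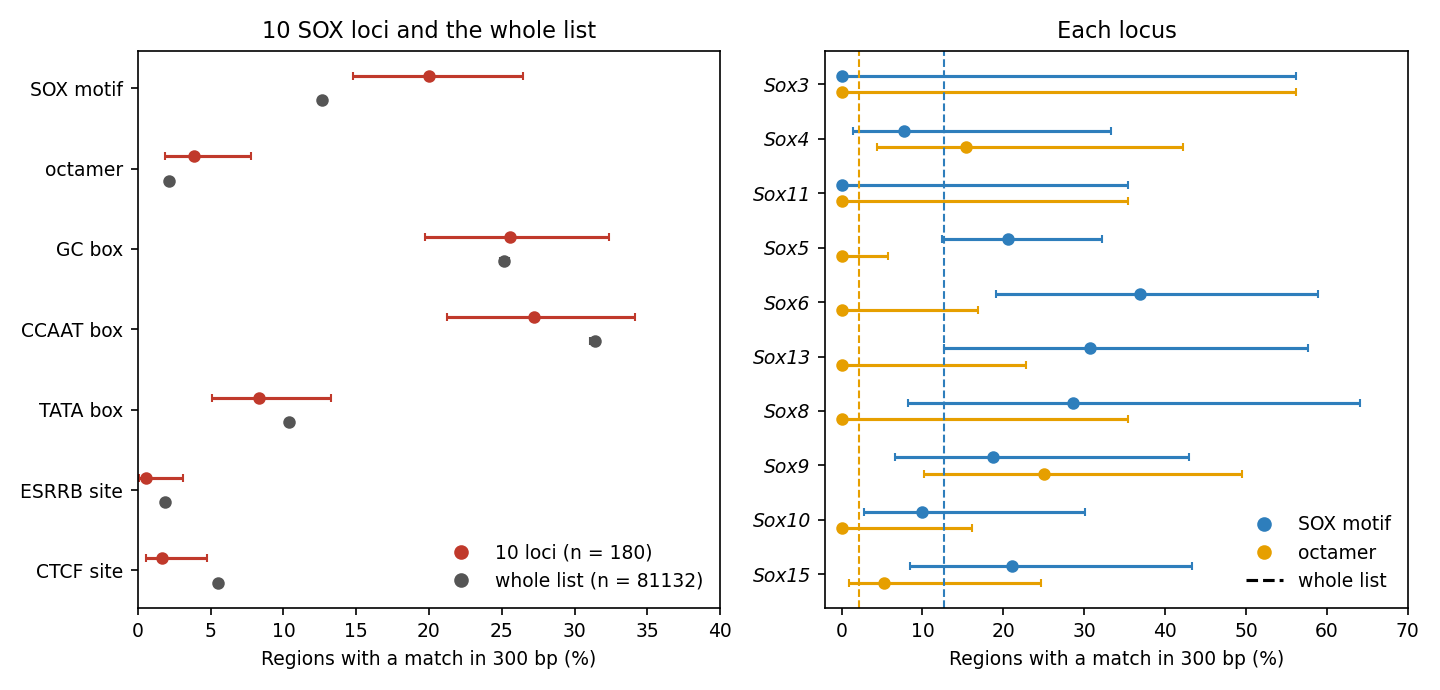
Share of regions with a motif in the 300 bp around the centre, in percent with 95% Wilson intervals, for the 10 loci together and the whole list (left) and for each locus (right; dashed lines are the whole list). The SOX motif is in 20% of the 180 regions and 12.7% of the list, and at Sox9 the octamer is in 4 of 16 regions.

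The regions of the 10 loci were of ordinary size and composition. The median width was 348 bp (quartiles 222 and 510 bp), and 6 of the 180 (3.33%) were wider than 1000 bp, beside 4.75% of the list. By locus the median width went from 270 bp at Sox8 to 433 bp at Sox4. In promoters the median was 433 bp at the loci and 600 bp over the list, whereas outside promoters it was 326 and 320 bp. The median GC content of the 300 bp was 53.7% (list 51.7%), the ratio of observed to expected CpG was 0.347 (list 0.302), and the part in annotated repeats was 7.67% (list 8.33%). Sox6 regions had a median GC of 48.7% and Sox5 regions of 47.7%, and those of Sox10, Sox8 and Sox3 had 62%, 60.7% and 65.3%. Distance to the closest TSS had a median of 6008 bp, close to 6257 bp over the list, but its upper quartile was 33033 bp against 19235 bp. The large distances rest on Sox5. Of the 180 regions, 80 lay over 10 kb from the closest TSS (44.4%, list 39.9%), and 50 of these were among the 63 regions of Sox5.

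**Figure D5:**
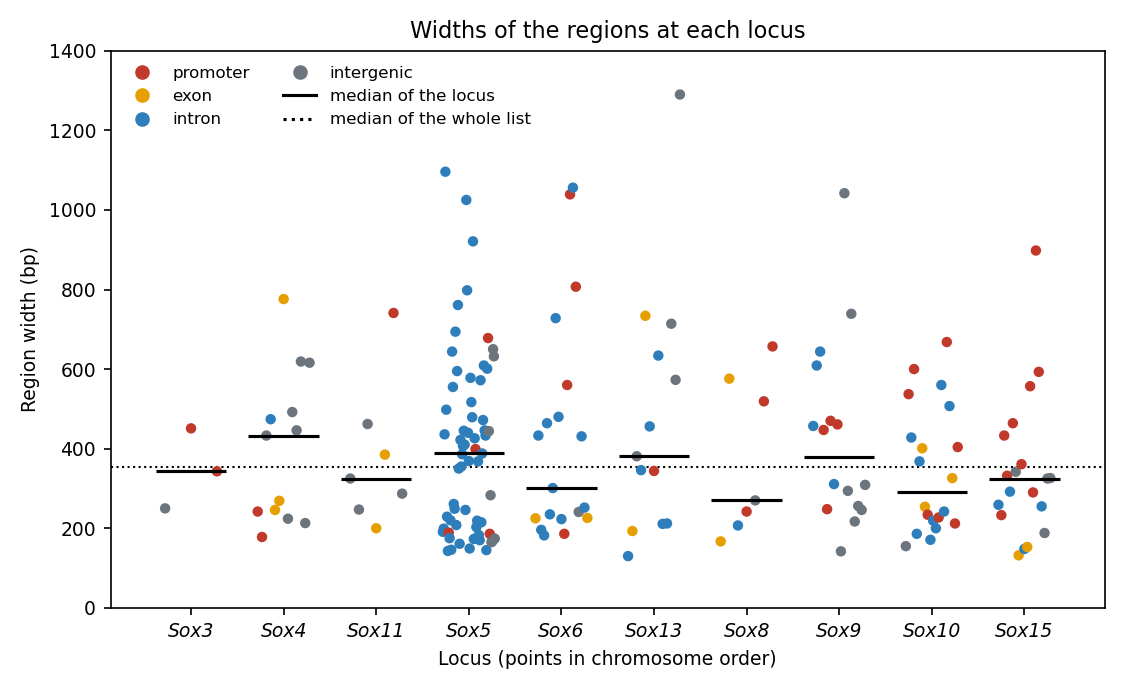
Width of each of the 180 regions in bp, by locus and in chromosome order, coloured by annotation class, with the median of each locus (bars) and of the whole list (dotted line). The widest region, 1290 bp, is intergenic and upstream of Sox13, and the locus medians go from 270 to 433 bp.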

How the data were processed

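ATAC-seq libraries of SHOH, SHOL, SLOH and SLOL cells (3 each) were aligned to mm10 by the authors with STAR (2.5.3a; versions are those of the submitters' processing notes). Uniquely mapped reads on chromosomes 1 to 19, X and Y were kept, duplicates were removed with Picard, and peaks were called per library with MACS2 (2.1.1.20160309) on paired-end fragments. Their methods give no shift for Tn5 insertion. The peaks were pooled into 1 list with BEDOPS, without those that overlapped peaks of a ChIP-seq input. The deposited file gives chromosome, start and end of each region, without depth or a measured level. The 4 ChIP-seq samples were not used here.

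Regions were read with Python (3.11.15), numpy (2.4.6) and pandas (2.3.3), placed on GENCODE M21, and their GRCm38 sequence was read with pysam (0.24.0). None passed a chromosome end. Plots were made with matplotlib (3.10.9). Assignment and motif search were tested on simulated data. Counts are described without a test. Alternatives changed the window, start sites, promoters, letters and the joining or width of regions. Besides the 10 genes, the other SOX genes, Pou5f1 and up to 5 coding neighbours with a promoter region per locus were named, and sequences were shown for own promoters and motif combinations, without annotated exons. The members and lists were chosen with earlier results of these data known. A marker gene and some sequences are not reported here.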

Additional observations from a re-analysis of the deposited data

How the results depend on the processing

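No paired analysis was possible because the list has no values per library and the results come from no test, and for the same reason no replicate could be left out. Of 31 alternative values for the results over all loci, 19 stayed within 1.5 times the count or within the interval of the share or median. The number of regions at the 10 loci (180) was 83 with gene bodies alone and 117 without Sox5. The median per locus (14.5) was 23.5 with 200 kb windows and 2.5 with gene bodies alone. The share closest to the SOX gene (36.7%) was 72.2% among protein-coding TSSs. The promoter share (20.6%) was 28.9% with 1 kb and 46.7% with 5 kb to both sides, when the whole list gave 28.2% and 45.7%, and 28.2% without Sox5. The SOX motif share (20%) was 12.2% in 200 bp and 40% with the shorter letters. The octamer share (3.89%) was 25% with 1 mismatch, when the list gave 20.9%, and 1.83% without Sox9. Each of these follows from what the alternative counts. For single loci, 10 of 10 counts stayed within 1.5 times when regions were joined, narrow regions left out, any overlap counted or the 5′ end of the gene used alone, 7 of 10 with 50 kb, 4 of 10 with 200 kb and 2 of 10 with gene bodies alone. Leaving out Sox5 or Sox9 was chosen after seeing the data. The list carries no depth per library, and a weak region can be missing from a shallow library.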

Other observations

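The other SOX genes, counted with the same windows, had 114 regions together. Sox12, the remaining gene of group C, had 20 regions, and Sox18, a gene of blood vessel formation, had 18. Sox1 had 15, Sox30 had 14, Sox21 had 13 and Sox2 had 12, while Sox7 and Sox17, both of group F and known from endoderm, had 8 each and Sox14 had 6. Sry, on the Y chromosome, had none. A region in the own promoter was present at 6 of these 10 genes (60%, interval 31.3 to 83.2), namely Sox1, Sox2, Sox7, Sox12, Sox14 and Sox30. The SOX motif occurred in 16 of them (14.0%, interval 8.83 to 21.6), of which 5 were among the 12 regions of Sox2, and an octamer was present in 3 (2.63%, interval 0.899 to 7.45).

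Pou5f1, the gene of OCT4, had 24 regions in its window (11.8 per 100 kb), more than 92.0% of protein-coding genes, and 9 other coding genes start there. Sox2 had 6.00 regions per 100 kb with no other coding gene start in the window, between Sox4 (6.50) and Sox5 (5.98).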
